A study of Danio rerio with 4 samples.

Results

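Neutrophils are the white blood cells that reach a wound first, and 4 genes that mark them in zebrafish were followed across the libraries of this series: lyz, mpx, csf3r and npsn. They were chosen by symbol, and all 4 were found among the 20269 genes with a level in the deposited tables. Loci without a gene ID were treated as genes in this count and in the comparisons below. All 4 averaged at least 1 FPKM, a read density corrected for transcript length and library size, over the libraries, as did 13575 genes in all.

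RNA was sequenced from hearts of Tg(vmhc:mCherry-NTR) zebrafish larvae at 5 days post fertilization, and every group carried this transgene. In this line a promoter of ventricular cardiomyocytes drives nitroreductase, an enzyme that makes metronidazole (MTZ) toxic to the cells that carry it. The protocol gives 5 mM MTZ for 4 hours from 72 hours post fertilization, and then, between 76 and 124 hours, either 2 µM SIS3, which blocks the phosphorylation of Smad3, or the vehicle at 0.2% DMSO. The 4 groups were injured hearts with SIS3, injured hearts with DMSO, uninjured hearts with SIS3 and uninjured hearts with DMSO, with 1 library each. Injured hearts were taken 2 days after treatment. How many hearts went into a library, and whether uninjured larvae received MTZ, are not stated in the sources used here. No group had a replicate, so the differences below are between single libraries, with no error estimate and no test.

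The libraries were of cardiac tissue by their markers. Of 13 cardiac markers 12 had a level, and myl7, a myosin light chain of the zebrafish heart, stood at 2570, 2813, 4072 and 4979 scaled FPKM in injured SIS3, injured DMSO, uninjured SIS3 and uninjured DMSO hearts. The cardiac marker myh6 was listed at 0 in both uninjured libraries, and cmlc1 at 0 in the injured SIS3 library. Markers of other tissues were present too and differed between the libraries. In the same order, the scaled levels of 11 liver markers summed to 2431, 248, 213 and 390 FPKM, those of 8 markers of exocrine pancreas and gut to 587, 236, 1905 and 1749 FPKM, and those of 10 brain and eye markers to 9.0, 0.268, 153 and 275 FPKM. A gene's level is the larger of its summed first-exon and summed last-exon FPKM, and a scaled level is that value after the libraries were brought to a common median. In the pancreas and gut sums ela2 alone held 207, 186, 436 and 415 scaled FPKM, in the order above. Prss1, another of these 8 markers, stood at 78.2, 10.4, 393 and 356 scaled FPKM. The part that liver, pancreas, gut, brain and eye have in the results below was not tested.

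The 4 genes stand for different steps in the life of a neutrophil. Csf3r is the receptor for granulocyte colony-stimulating factor (G-CSF), the cytokine that drives neutrophil production and release. Lyz encodes lysozyme C, which cuts bacterial cell walls. Its expression in larval zebrafish marks neutrophils and also some macrophages. Mpx is the myeloperoxidase of zebrafish, a granule enzyme that makes hypochlorous acid from hydrogen peroxide, and it is widely used to count neutrophils. Npsn encodes nephrosin, a secreted metalloprotease of the astacin family found in fish granulocytes. Neutrophils enter injured zebrafish hearts early, and macrophages follow and stay longer.

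The receptor gene csf3r (ENSDARG00000045959) had the lowest level of the 4 in every library. It stood at 2.22 scaled FPKM in injured SIS3 hearts, 3.55 in injured DMSO hearts, 0.731 in uninjured SIS3 hearts and 0.910 in uninjured DMSO hearts. Both injured libraries lay above both uninjured ones. In DMSO the injured library was 3.90 times the uninjured one, and in SIS3 3.04 times. On the scale used for calls, the difference of log2(scaled FPKM + 1), these were changes of 1.25 and 0.90, so that csf3r passed the 2-fold call in DMSO and missed it in SIS3. This scale understates the change of a gene at such a low level. In whole-heart RNA, more neutrophils and more csf3r RNA per neutrophil cannot be told apart, and the same holds for the genes below.

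The tables place csf3r at 2 loci of chromosome 16 (GRCz10). The locus on the minus strand spans 3207375 to 3230290. A second locus on the plus strand, at 3201896 to 3207469, overlaps its end by 95 bases under the same gene ID, and was listed in the uninjured DMSO library only, at 0.597 FPKM as deposited. The minus-strand locus alone held 2.31 and 3.83 FPKM as deposited in injured SIS3 and injured DMSO hearts, against 0.722 and 0.245 FPKM in uninjured SIS3 and uninjured DMSO hearts. Without the plus-strand locus, the change with injury in DMSO was 1.85, and the change with SIS3 in uninjured hearts was 0.45 in place of −0.14. Whether counting kept strand is not stated in the sources used here, and without it reads of overlapping genes on opposite strands cannot be told apart.

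The lysozyme gene lyz (ENSDARG00000057789, chromosome 24, 23890689 to 23893626, minus strand) was the highest of the 4 in every library. It stood at 100.9 scaled FPKM in injured SIS3 hearts and 92.0 in injured DMSO hearts, against 21.8 in uninjured SIS3 hearts and 22.3 in uninjured DMSO hearts. Injured hearts were thus far above uninjured ones, and the SIS3 and DMSO libraries of the same condition lay close together. The injured library was 4.62 times the uninjured one in SIS3 and 4.12 times in DMSO, which are changes of 2.16 and 2.00. In injured hearts SIS3 was 1.1 times DMSO, and in uninjured hearts 0.978 times. Each library lists 1 first exon and 1 last exon for lyz with the same FPKM, so its level does not depend on which end of the transcript was used. Its level exceeded that of 96.7% and 96.3% of the listed genes in injured SIS3 and injured DMSO hearts, against 87.7% and 87.1% in uninjured SIS3 and uninjured DMSO hearts.

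The peroxidase gene mpx (ENSDARG00000019521, chromosome 10, 7821219 to 7827245, minus strand) did not follow lyz. It stood at 8.38 scaled FPKM in injured SIS3 hearts, 3.75 in injured DMSO hearts, 3.69 in uninjured SIS3 hearts and 5.61 in uninjured DMSO hearts. The injured SIS3 library was the highest, and in DMSO the injured library was the lower one. In SIS3 the injured library was 2.27 times the uninjured one (change 1.00), whereas in DMSO it was 0.669 times (change −0.48). SIS3 was 2.23 times DMSO in injured hearts, a change of 0.98 that just misses the 2-fold call on the log2(scaled FPKM + 1) scale, and 0.657 times DMSO in uninjured hearts (change −0.50). The injury change in SIS3 exceeded that in DMSO by 1.48. Its gene ID carries the name EPX in the name table used here, and it was taken as mpx because it lies between the genes named LOX and MAT2A, where RefSeq places mpx between loxa and mat2aa. The gene that RefSeq names epx was not analysed here.

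The metalloprotease gene npsn (ENSDARG00000010423, chromosome 7, 38382223 to 38388818, minus strand) resembled lyz by the level used here. It stood at 27.3 scaled FPKM in injured SIS3 hearts and 21.2 in injured DMSO hearts, against 3.24 in uninjured SIS3 hearts and 4.57 in uninjured DMSO hearts. Both injured libraries were above both uninjured ones, by 8.42 times in SIS3 (change 2.74) and 4.65 times in DMSO (change 2.00). These levels are first-exon sums in injured hearts and last-exon sums in uninjured hearts, and by last exons in every library the changes were 0.63 in SIS3 and 0.40 in DMSO, neither past 2-fold. SIS3 was 1.29 times DMSO in injured hearts and 0.710 times DMSO in uninjured hearts. By these levels npsn was the second highest of the 4 in injured hearts, above mpx, whereas in uninjured hearts mpx was above npsn. By last exons npsn held 5.80 FPKM as deposited in injured SIS3 hearts, below mpx at 8.71. In injured DMSO hearts it held 6.89 FPKM by last exons, above mpx at 4.04.

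**Figure D1:**
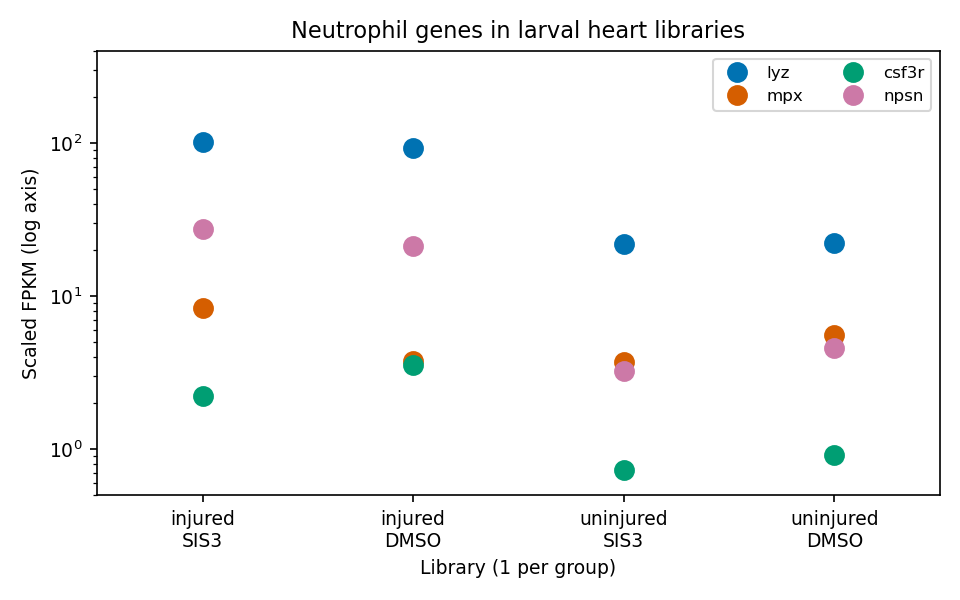
Level of lyz, mpx, csf3r and npsn in each of the 4 heart libraries, in scaled FPKM on a log axis, with 1 point per gene and library. Lyz (100.9 and 92.0 in injured SIS3 and injured DMSO, against 21.8 and 22.3 in uninjured SIS3 and uninjured DMSO) and npsn were higher in both injured libraries, and mpx was highest in the injured SIS3 library at 8.38.

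In injured DMSO against uninjured DMSO hearts, 3 of the 4 genes (lyz, npsn and csf3r) were higher by 2-fold or more and none was lower, where 6.56% of all compared genes were higher and 8.7% lower by that measure. The count was 2 by last exons alone, where npsn changed by 0.40 and mpx had no value. By first exons alone it was 2 as well, because npsn had no first exon listed in uninjured DMSO hearts and so no value. The npsn call in DMSO thus sets a first-exon sum against a last-exon sum. The count was also 2 with a pseudocount of 5 FPKM, where csf3r changed by 0.53, and under a mean filter of 5 FPKM, where csf3r had no value. The median change of the 4 was 1.62, against −0.01 for all compared genes. Of the 13575 genes, 180 had a higher change than npsn, 181 a higher one than lyz and 553 a higher one than csf3r, whereas 10496 had a higher change than mpx. In injured SIS3 against uninjured SIS3 hearts, 3 of the 4 genes (npsn, lyz and mpx) were higher by 2-fold or more and none was lower, where 6.45% of all compared genes were higher and 6.59% lower. The count was 4 with a pseudocount of 0.1 FPKM and 2 under 4 other alternatives, where mpx changed by 0.62 to 0.995, and 1 (lyz) by last exons alone, where npsn changed by 0.63 and mpx had no value. The median was 1.58, and 89 genes had a higher change than npsn, 183 a higher one than lyz, 873 a higher one than mpx and 1065 a higher one than csf3r.

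SIS3 was set against DMSO to ask what inhibition of Smad3 did to these genes. None of the 4 passed the 2-fold call on the log2(scaled FPKM + 1) scale in injured SIS3 against injured DMSO hearts. Of all compared genes 3.2% were higher by 2-fold or more and 1.13% lower. In scaled FPKM alone mpx was 2.23 times DMSO in this pair, and it passed the call with a pseudocount of 0.1 FPKM (1.14). Mpx (0.98), npsn (0.35) and lyz (0.13) were above 0, csf3r (−0.50) was below 0, and the median was 0.24. By last exons npsn was at −0.17 in this pair. Mpx was the one near the edge of all genes, with 449 genes above it. In uninjured SIS3 against uninjured DMSO hearts all 4 were below 0, from −0.03 for lyz to −0.50 for mpx, and none was past 2-fold, where 1.79% of all compared genes were higher and 1.45% lower. With the deposited values unscaled, lyz was above 0 in this pair (0.062), and with the minus-strand locus alone csf3r was too (0.45). The injury change in SIS3 minus that in DMSO was past 2-fold for mpx only (1.48), where 4.91% of all compared genes were higher and 3.15% lower. It was 0.74 for npsn, 0.16 for lyz and −0.35 for csf3r. By last exons this difference was 0.23 for npsn, and with the minus-strand locus alone it was −0.95 for csf3r. These comparisons share libraries, so their values are not independent of each other.

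**Figure D2:**
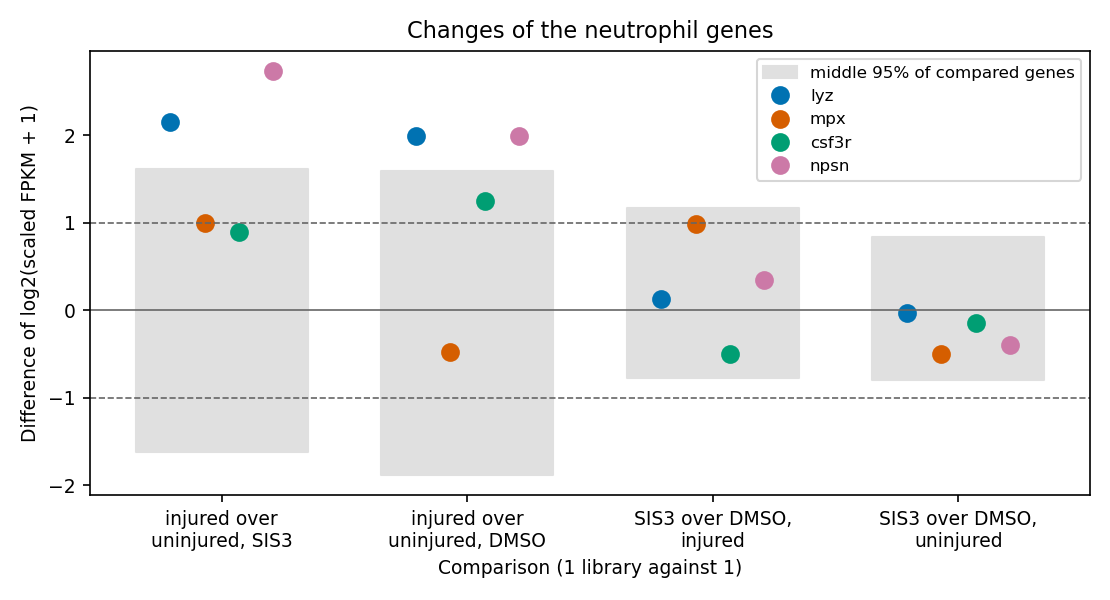
Change of each of the 4 genes in each comparison of 1 library with 1 library, as a difference of log2(scaled FPKM + 1), with 2-fold as dashed lines and the middle 95% of the 13575 compared genes in grey. Lyz and npsn lay above the grey range in both injury comparisons, and all 4 genes lay inside it in both SIS3 comparisons.

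Ratios of genes within a library are free of the scaling between libraries. Lyz was 12.0 times mpx in injured SIS3 hearts and 24.5 times in injured DMSO hearts, against 5.93 times in uninjured SIS3 and 3.98 times in uninjured DMSO hearts, in FPKM, which is per length. The ratio of lyz to npsn moved much less by the levels used, at 3.70, 4.34, 6.74 and 4.89 in the same order. Those npsn levels are first-exon sums in injured hearts and last-exon sums in uninjured hearts. By last exons npsn held 5.80, 6.89, 3.21 and 4.22 FPKM as deposited. The ratio of lyz to npsn was then higher in each injured library than in its uninjured counterpart. Coro1a, an actin-binding protein of most white blood cells, stood at 44.5 and 62.2 scaled FPKM in injured SIS3 and injured DMSO hearts, against 11.5 and 13.1 in uninjured SIS3 and uninjured DMSO hearts. Per coro1a, lyz was at 2.27, 1.48, 1.90 and 1.71 in the order injured SIS3, injured DMSO, uninjured SIS3 and uninjured DMSO, so that this ratio spanned a much smaller range than lyz itself. Per coro1a, mpx was at 0.188 and 0.0603 in injured SIS3 and injured DMSO hearts, against 0.320 and 0.429 in uninjured SIS3 and uninjured DMSO hearts. This ratio was lower in each injured library than in its uninjured counterpart. Csf3r per coro1a was lower there too, at 0.05 and 0.0571 in injured SIS3 and injured DMSO hearts, against 0.0635 and 0.0697 in uninjured SIS3 and uninjured DMSO hearts. In uninjured DMSO hearts 0.597 FPKM of the csf3r level came from the plus-strand locus and 0.245 FPKM from the minus-strand locus. With the minus-strand locus alone, csf3r per coro1a in DMSO was higher in injured than in uninjured hearts. Npsn per coro1a was higher with injury in SIS3, at 0.613 against 0.282, and nearly level in DMSO, at 0.341 in injured and 0.349 in uninjured hearts. By last exons in every library, npsn per coro1a was lower with injury in SIS3 and in DMSO.

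The deposited tables list transcript events rather than whole genes: first exons, last exons and the use of internal exons. For npsn the first and last exons disagreed. The first exon at 38388128 to 38388219 held 28.3 FPKM as deposited in the injured SIS3 library and 22.9 in the injured DMSO library, and was listed in neither uninjured library. A second first exon, at 38388754 to 38388818, was listed in the uninjured SIS3 library only, at 2.53 FPKM. The last exon at 38382223 to 38382745 was listed in all 4 libraries, at 5.80 FPKM in injured SIS3, 6.89 in injured DMSO, 3.21 in uninjured SIS3 and 4.22 in uninjured DMSO. The first-exon sum was 4.89 times the last-exon sum in injured SIS3 and 3.32 times in injured DMSO hearts. A gap of that size or larger was found in 4.03% and 5.17% of genes that had both sums and averaged 1 FPKM or more. RefSeq lists the name npsnl as a synonym of npsn, and the related astacin gene c6ast3 lies near it. How reads shared by close copies were assigned is not stated in the sources used here, so the npsn level is uncertain to that extent.

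For mpx the tables list no last exon in any library, and its level rests on the first exon at 7827186 to 7827245. An internal exon of 38 bases (7821540 to 7821577) was reported as included or skipped, as read from the exon chains in the tables. Inclusion was 37.5% of the FPKM of both forms in injured SIS3 hearts, 2.55% in injured DMSO hearts, 43.3% in uninjured SIS3 hearts and 39.5% in uninjured DMSO hearts. The injured DMSO library stood apart from the other libraries, with 0.103 FPKM for the included form and 3.94 FPKM for the skipped form. The included form was at 3.26 FPKM in injured SIS3, 1.58 in uninjured SIS3 and 2.05 in uninjured DMSO hearts. A difference as large as that between injured DMSO and uninjured DMSO (−37.0 percentage points) was found in 3.8% of 2265 exons whose forms together reached 3 FPKM in each of these libraries, and one as large as that between injured SIS3 and injured DMSO (34.9 points) in 3.99% of 2379 exons. Depth is unknown, and at these levels no counting error can be given for the shares.

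**Figure D3:**
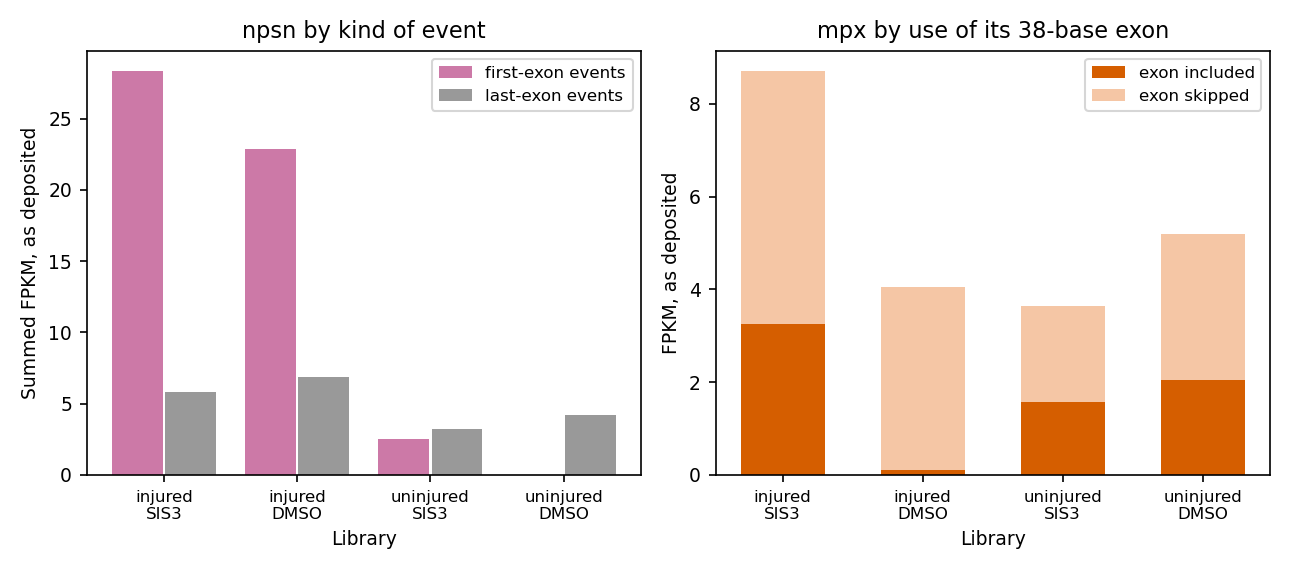
Left, summed first-exon and last-exon FPKM of npsn as deposited in each library; right, FPKM of the mpx forms that include or skip its 38-base exon. The first-exon sum of npsn was 28.3 and 22.9 FPKM in injured SIS3 and injured DMSO hearts where the last-exon sum was 5.80 and 6.89, and the included form of mpx was at 0.103 FPKM in injured DMSO hearts.

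The counts in the lists below stand beside the share of all compared genes past 2-fold. In injured DMSO against uninjured DMSO hearts 6.56% were higher and 8.7% lower, and in injured SIS3 against uninjured SIS3 hearts 6.45% and 6.59%. In injured SIS3 against injured DMSO hearts 3.2% were higher and 1.13% lower. The pathway of Csf3r was read from its ligands to its targets. The G-CSF genes were at or below about 1 FPKM: csf3a stood at 0.846, 0.940, 0.877 and 1.01 scaled FPKM in injured SIS3, injured DMSO, uninjured SIS3 and uninjured DMSO hearts, and csf3b was listed in injured SIS3 hearts only, at 0.498. Of 8 compared genes of the axis, 3 were higher by 2-fold or more in injured DMSO than in uninjured DMSO hearts and none was lower (median change 0.69). These were the feedback inhibitor socs3b (66.6 and 15.9 scaled FPKM), the kinase gene jak1 (40.8 and 17.0) and the transcription factor gene stat3 (20.2 and 9.51). In SIS3 the count was again 3, with socs3b (78.5 in injured and 16.1 in uninjured hearts), socs1a (11.6 and 3.51) and jak1 (25.5 and 9.20) higher. None of the 8 was past 2-fold in injured SIS3 against injured DMSO hearts (median −0.08). These genes serve many cytokines besides G-CSF.

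Transcription factors of the myeloid lineage were mixed. Of 9 compared, 3 were higher by 2-fold or more and 1 lower in injured DMSO against uninjured DMSO hearts (median 0.25). The higher ones were spi1b (9.10 and 0.442 scaled FPKM), spi1a (11.6 and 2.36), which encode the PU.1 factors of myeloid cells, and irf8 (10.3 and 1.88), which in zebrafish favours macrophages over neutrophils. Myb, a factor of blood progenitors and dividing cells, was the lower one (21.8 and 57.4). In injured SIS3 against injured DMSO hearts spi1a was lower by 2-fold or more (3.62 and 11.6), and 1 of the 9 was above 0. The granulocyte factor gene cebp1 was listed in injured SIS3 hearts only, at 0.315 scaled FPKM, and cebpa was not analysed here.

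Genes of leukocyte recruitment and retention were read next. Of 16 compared, 11 were higher by 2-fold or more and 1 was lower in injured DMSO against uninjured DMSO hearts (median 1.2); the lower one was the adhesion gene vcam1b (19.9 and 54.2 scaled FPKM). The neutrophil chemokine gene cxcl8b.1 stood at 14.4 scaled FPKM in injured DMSO and 1.14 in uninjured DMSO hearts, and cxcl8a at 6.52 and 2.43. The chemokine gene cxcl18b was at 19.8 and 6.01, and the endothelial adhesion gene sele, to which leukocytes tether, at 8.43 and 0.953. The chemokine receptor gene cxcr3.2 was at 13.0 and 2.31 in the same pair. In injured SIS3 against uninjured SIS3 hearts 9 of the 16 were higher, 1 was lower and 4 in all were below 0, with cxcl8a at 9.07 and 1.28 and cxcl8b.1 at 12.3 and 1.14. In injured SIS3 against injured DMSO hearts 4 of the 16 were above 0 and 1 was higher by 2-fold or more, the inflammatory cytokine gene il1b (3.26 and 0.633 scaled FPKM), which was chosen after its values were seen. The retention signal cxcl12a and its receptor gene cxcr4b were at 4.64 and 6.72 scaled FPKM in injured SIS3 hearts, 7.78 and 11.7 in injured DMSO hearts, 5.70 and 7.82 in uninjured SIS3 hearts and 7.27 and 9.23 in uninjured DMSO hearts. The chemokine receptor genes cxcr1 and cxcr2 were not analysed here.

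The NADPH oxidase makes the superoxide from which the hydrogen peroxide used by Mpx is formed. The 5 compared genes were the oxidase genes cyba, ncf1, ncf4 and rac2 and the proton channel gene hvcn1. Of these 5, 3 were higher by 2-fold or more in injured DMSO than in uninjured DMSO hearts and none was lower (median 1.03). Among the 3 were the subunit gene cyba (25.5 and 7.82 scaled FPKM) and the regulatory GTPase gene rac2 (30.7 and 9.0). In SIS3, 2 of the 5 were higher in injured hearts, rac2 (25.5 in injured and 7.36 in uninjured hearts) and cyba (28.0 and 9.08). None was past 2-fold in injured SIS3 against injured DMSO hearts, and 1 of the 5 was above 0 there (median −0.34). Macrophages use the same oxidase.

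Other genes with known neutrophil expression were mixed after injury in DMSO. Of 21 listed symbols 12 were compared. In injured DMSO against uninjured DMSO hearts 3 were higher by 2-fold or more and 3 lower (median 0.47), and in injured SIS3 against uninjured SIS3 hearts 7 were higher and none lower (median 1.56). In injured SIS3 against injured DMSO hearts 5 were higher by 2-fold or more, none was lower and 11 were above 0 (median 0.71, against 0.00 for all compared genes). The gelatinase gene mmp9 stood at 14.3 scaled FPKM in injured SIS3 and 2.59 in injured DMSO hearts, the collagenase gene mmp13a at 12.7 and 5.03, the secreted phosphoprotein gene scpp8 at 6.65 and 2.27, and the protease inhibitor gene timp2b at 114 and 42.3. The surface protease gene adam8a was at 10.6 and 7.30 in the same pair, and at 7.30 in injured DMSO against 1.13 in uninjured DMSO hearts. The 3 lower ones in injured DMSO against uninjured DMSO hearts were tcnbb (20.8 and 43.5 scaled FPKM), hsd3b7 (2.70 and 8.18) and alas1 (75.3 and 152). Tcnbb was also the only compared gene of this list below 0 in injured SIS3 against injured DMSO hearts (13.7 and 20.8). Srgn, the proteoglycan of leukocyte granules, stood at 159, 132, 57.5 and 66.0 scaled FPKM in injured SIS3, injured DMSO, uninjured SIS3 and uninjured DMSO hearts. The list holds genes that other cells express as well, such as timp2b in connective tissue and alas1 and hsd3b7 in liver, and the summed liver markers were 2431 FPKM in injured SIS3 against 248 FPKM in injured DMSO hearts. The part of liver RNA in these values was not tested.

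**Figure D4:**
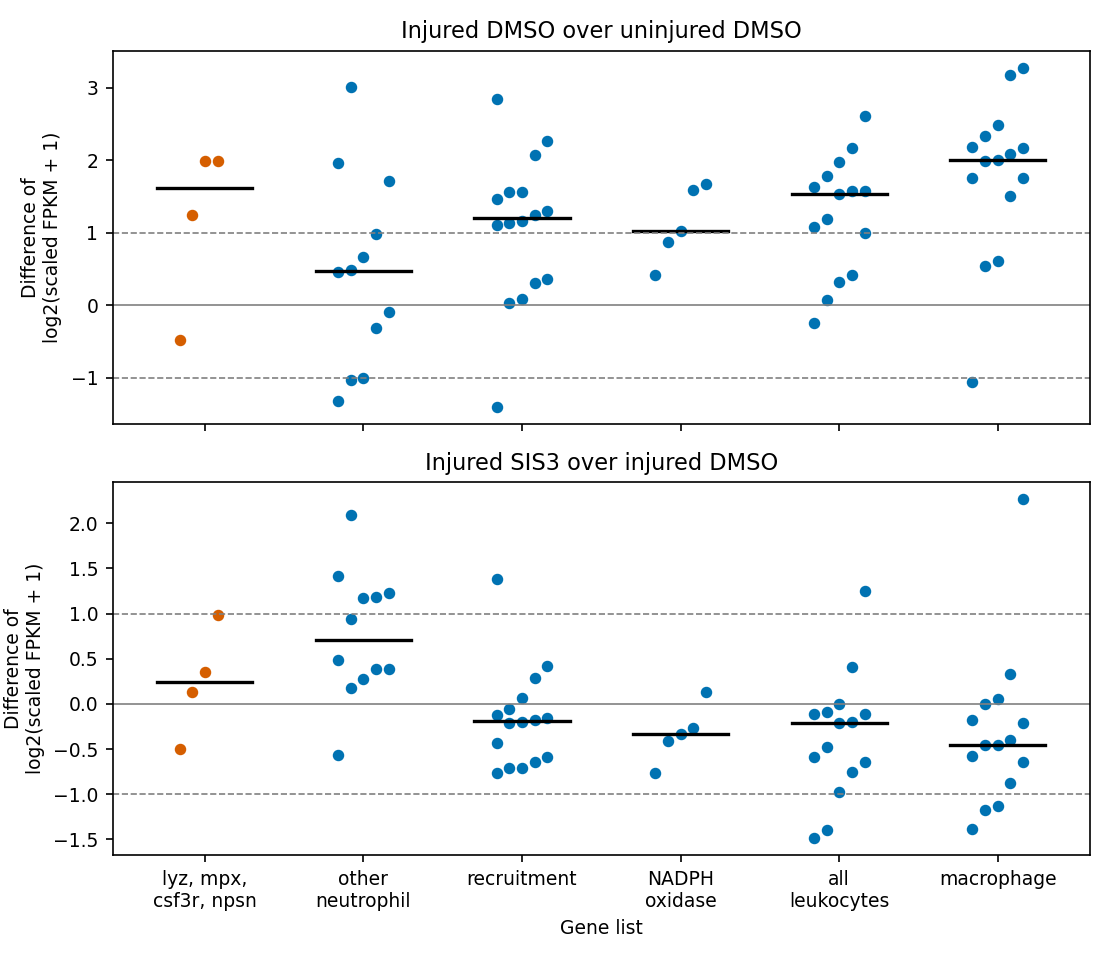
Change of each compared gene (points) and list median (bars), as a difference of log2(scaled FPKM + 1), in injured DMSO over uninjured DMSO hearts (top) and injured SIS3 over injured DMSO hearts (bottom), with 2-fold as dashed lines. In the lower panel the medians of lyz, mpx, csf3r and npsn (0.24) and of the other neutrophil genes (0.71) lie above 0, and those of recruitment, NADPH oxidase, leukocyte and macrophage genes (−0.19, −0.34, −0.21 and −0.45) below it.

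Macrophage markers and general leukocyte genes were mostly past 2-fold upward in the injured libraries. Of 15 compared macrophage markers, 12 were higher by 2-fold or more and 1 lower in injured DMSO against uninjured DMSO hearts (median 2.01), and 11 were higher and none lower in SIS3 (median 1.28). Their summed level over 16 genes was 462, 433, 156 and 147 scaled FPKM in injured SIS3, injured DMSO, uninjured SIS3 and uninjured DMSO hearts. Without apoeb, an apolipoprotein gene that other tissues also express, the sums were 283, 397, 71.4 and 70.1, so that injured SIS3 was then below injured DMSO. Of 15 compared genes of leukocytes in general, 10 were higher and none was lower in DMSO (median 1.54), and 9 were higher and 1 lower in SIS3 (median 1.18), with sums over 16 genes of 454, 589, 159 and 179 scaled FPKM in the same order. Because lyz is also a gene of some macrophages, its values were set beside lygl1, a lysozyme gene of the goose type in the macrophage list. Lygl1 was at 56.1, 74.2, 8.14 and 7.32 scaled FPKM in that order, and lyz was 1.8, 1.24, 2.68 and 3.05 times lygl1. The macrophage marker mpeg1.1 was not analysed here. The part of macrophage RNA in the lyz values was not tested.

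In injured SIS3 against injured DMSO hearts the markers went different ways. Of the 15 macrophage markers 3 were lower by 2-fold or more, 1 was higher and 3 were above 0 (median −0.45). The lower ones were csf1rb, one of the receptors for the macrophage growth factor (16.9 and 39.2 scaled FPKM), and the complement genes c1qa (1.77 and 6.22) and c1qb (3.01 and 7.77). The higher one was apoeb (179 and 36.3). Of the 15 general leukocyte genes 2 were lower, 1 was higher and 2 were above 0 (median −0.21). Of the 4 neutrophil genes 3 were above 0 in this pair and csf3r was below 0. None passed the 2-fold call, which mpx (0.98) just missed. The median of all compared genes was 0.00. By last exons npsn was below 0 (−0.17) and mpx had no value, so the count for the 4 depends on the end used.

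Of 5 matched lymphocyte markers, 3 were at 0 in injured SIS3, 5 in injured DMSO, 1 in uninjured SIS3 and 2 in uninjured DMSO hearts, and their sums were at most 4.1 scaled FPKM. The mast cell and eosinophil markers with a level were gata2a, gata2b and eslec, with sums from 3.03 to 6.33 scaled FPKM, most of it from gata2a, which blood progenitors and endothelium also express. Red cell and thrombocyte markers summed to 5717, 4977, 6773 and 8100 scaled FPKM in injured SIS3, injured DMSO, uninjured SIS3 and uninjured DMSO hearts. These sums were lower in each injured library than in its uninjured counterpart, and most of each came from hbae3 (5116, 4252, 6010 and 7266). Of the 6 compared genes 4 were below 0 and 2 above 0 with injury, in DMSO and in SIS3. Pronephric markers summed to 15.9, 14.2, 35.3 and 32.0 in the same order.

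The genes whose levels over the 4 libraries ran most like those of each neutrophil gene were found by the Euclidean distance between log2(scaled FPKM + 1) values, each centred on the gene's own mean, among 10971 named genes that were listed in all 4 libraries and averaged 1 FPKM or more. Nearest to lyz was socs3b (distance 0.088), then the genes named CD63 (0.14) and havcr1 (0.16). Nearest to npsn was dkk1b (0.11), with 39.9, 30.0, 5.59 and 7.00 scaled FPKM in injured SIS3, injured DMSO, uninjured SIS3 and uninjured DMSO hearts, then RDH10 (0.21) and EMP3 (0.22). The nearest to mpx were SLC43A2 (0.082; 70.1, 32.6, 32.3 and 45.9 scaled FPKM in that order), FTCD (0.083) and PTPRT (0.11). The nearest to csf3r were SASH1 (0.071), ALKBH2 (0.077) and MGAT1 (0.087). Names in capitals are given as in the name table, which does not tell zebrafish copies apart.

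Among the 4 neutrophil genes themselves, lyz and npsn were closest by the levels used, at 0.42, with 43 of the 10971 genes closer to lyz and 16 closer to npsn. The npsn distances, and its nearest genes above, rest on first-exon sums in injured hearts and last-exon sums in uninjured hearts. By last exons npsn changed by 0.63 and 0.40 with injury in SIS3 and DMSO, against 2.15 and 1.99 for lyz. Its closeness to lyz therefore depends on the end used, and no distance was computed from last exons alone. The distance from csf3r was 1.1 to lyz, 1.35 to mpx and 1.44 to npsn. These distances, and its nearest genes above, include the plus-strand locus, which held 0.597 FPKM as deposited in uninjured DMSO hearts against 0.245 for the minus-strand locus. No distance was computed from the minus-strand locus alone. Mpx was farthest from npsn (2.15) and from lyz (1.94), with 4068 genes closer to lyz than mpx was. With 4 libraries and no replicates these distances are descriptions of the libraries.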

How the data were processed

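RNA of 4 larval heart libraries was measured, 1 per group, and each was placed in its group from its label. The values are FPKM per transcript event, computed by the authors and used as deposited. Build GRCz10 and the tools HISAT2 2.0.5, HTSeq 0.6.1 and CASAVA 1.8 are listed, per the submitters' processing notes, with no roles. Which program made the event tables is not stated there. The tables held 51417 entries for injured SIS3, 47926 for injured DMSO, 56660 for uninjured SIS3 and 53363 for uninjured DMSO, including 293, 306, 346 and 345 repeats, which were dropped.

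Each gene was given its higher sum, over first-exon or over last-exon events, and 0 where it was not listed. Such a 0 can be a failed estimate, since the cardiac genes myh6 and cmlc1 were at 0 in some libraries. Both sums were equal to within 0.1% in 68.9% to 69.3% of genes with both. Libraries were scaled by the median ratio to their geometric mean, with log2 factors of 0.055, 0.11, −0.017 and −0.11 in the order above. Unscaled, the change of the median gene was 0.17 for injury in DMSO, 0.051 for injury in SIS3, −0.043 for SIS3 after injury and 0.069 for SIS3 without injury. Changes are differences of log2(scaled FPKM + 1) for genes averaging 1 FPKM or more, called at 2-fold. Read depth is unknown, so no counting interval is given, and with 1 library per group no test was run. Python 3.11.15, numpy 2.4.6 and pandas 2.3.3 were used. The scaling and the change between libraries were tested on simulated gene levels. Changes were put there into genes with mean levels above those of csf3r, mpx and npsn. Summing of events and matching of symbols were not part of that test.

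Of 18296 gene IDs 17308 had a symbol. Capital names were given to zebrafish symbols through neighbouring genes in RefSeq (GRCz12tu), from which no coordinates were taken. Mpx and csf3r were matched by hand in this way, with 9 and 2 neighbouring genes shared. Of 262 symbols in 19 further lists 184 were matched. The 4 genes and the lists were chosen with earlier results of these data known. Named genes were the 4, 11 genes fixed by name, up to 4 genes per list past 2-fold and at 5 FPKM or more in the higher library, and the 3 nearest genes to each of the 4. Genes named to illustrate a list, though not among these, were chosen after their values were seen. A planned search of promoter sequences was not run. The alternatives were 11 planned and 2 added after the data were seen, the minus-strand locus of csf3r and the macrophage sum without apoeb.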

Additional observations from a re-analysis of the deposited data

Results flagged for a closer look

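Mpx differed in direction between the comparisons of injured with uninjured hearts. Its change was 1.00 in SIS3 (8.38 scaled FPKM in injured and 3.69 in uninjured hearts) and −0.48 in DMSO (3.75 and 5.61 scaled FPKM). The difference of 1.48 was picked out because the libraries moved opposite ways with 1 library on each side, and it was not tested.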

How the results depend on the processing

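No paired analysis was possible because each group had 1 library. Lyz was at least 2-fold higher with injury, in DMSO and in SIS3, in all 12 alternatives. Several of these could hardly move it: the filter settings, the repeated rows and the csf3r locus left its changes as they were, and its first-exon and last-exon sums were equal. The other calls depended on the settings. Csf3r with injury changed by 0.53 in DMSO with a pseudocount of 5 FPKM, and by 1.48 in SIS3 with one of 0.1 FPKM; it had no value under a mean filter of 5 FPKM. Mpx with injury in SIS3 changed by 0.62 with a pseudocount of 5 FPKM, 0.92 with upper quartile scaling, 0.995 with first-exon sums only and 0.87 with the mean of both sums. By last exons, npsn changed by 0.40 with injury in DMSO and 0.63 in SIS3. By first exons npsn changed by 2.98 in SIS3, where the injured and uninjured libraries list different first exons, and had no value in DMSO. The number of the 4 genes at least 2-fold higher was 1 for SIS3 after injury with a pseudocount of 0.1 FPKM (mpx, 1.14), 0 for the difference of injury changes with a pseudocount of 5 FPKM (mpx, 0.90), and 1 for injury in SIS3 and 0 for the difference with last-exon sums only, where mpx has no value. Reversed in sign were lyz for SIS3 without injury unscaled (0.062), npsn for SIS3 after injury by last exons (−0.17), npsn with the mean of both sums for SIS3 without injury (0.25) and for the difference (−0.020), csf3r for SIS3 without injury from its minus-strand locus (0.45), and the log2 ratio of summed macrophage markers for SIS3 after injury without apoeb (−0.49). The mean of both sums takes in a first-exon sum of 0 for npsn in uninjured DMSO hearts, and a last-exon sum of 0 for mpx in every library. The cause of the other reversals was not tested. Over all genes, counts past 2-fold upward and downward moved as follows. With a pseudocount of 0.1 FPKM, injury in SIS3 gave 1371 lower, SIS3 after injury 764 and 378, SIS3 without injury 462 and 375, and the difference 1075 and 810. With a pseudocount of 5 FPKM the counts were 348 and 427 for injury in DMSO, 396 and 256 for injury in SIS3, 169 and 45 for SIS3 after injury, 68 and 68 for SIS3 without injury, and 272 and 101 for the difference. With no filter, SIS3 after injury gave 244 lower, SIS3 without injury 397 higher, and the difference 1039 and 759. Under a mean filter of 5 FPKM, which leaves fewer genes, the counts were 531 and 542, 556 and 349, 205 and 61, 88 and 109, and 336 and 143 in the order of comparisons above. Depth is unknown, so a limit from read number cannot be given.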

Other observations

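Genes of the same families as the 4 had levels of their own. The astacin gene c6ast3, a neighbour of npsn, stood at 0.459 scaled FPKM in injured SIS3 hearts, against 34.7 in uninjured SIS3 hearts, and was listed at 0 in injured DMSO hearts, against 2.36 in uninjured DMSO hearts. Of 8 matched astacin genes 3 were compared. Of 10 compared class I cytokine receptors, the family of csf3r, 3 were at least 2-fold higher and none lower in injured DMSO against uninjured DMSO hearts: lifrb (11.6 and 0.854 scaled FPKM), il4r.1 (12.5 and 3.93) and il6st (21.0 and 8.24), the shared receptor of the interleukin 6 family. Of all compared genes 6.56% were higher and 8.7% lower in this pair. The peroxidase pxdn, related to mpx and known for crosslinking of basement membrane collagen, stood at 21.9 scaled FPKM in injured DMSO and 9.74 in uninjured DMSO hearts, and at 18.7 in injured SIS3 and 17.2 in uninjured SIS3 hearts.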
